A study of Homo sapiens with 8 samples.

Results

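In human colonic epithelial cells with or without CREBBP, 435 intervals of H3K27ac away from promoters had their strongest peak summit inside an exon. These exonic intervals were 1.22% of the 35542 intervals that passed the fold filter and 2.24% of the 19434 whose summit lay over 3 kb from any transcript start. An interval was a merged run of overlapping H3K27ac peaks from the 6 libraries, kept where the deposited fold over local background reached 5 in all 3 libraries of a genotype. It counted as exonic where the summit of its highest peak fell in a coding exon or a 3′ UTR exon of the Ensembl canonical transcript of a protein-coding gene. The summit lay in coding sequence for 159 intervals (36.6%) and in a 3′ UTR for 276, in 425 host genes on 23 chromosomes. Every distance of an interval to a start given here was measured from the summit. An annotated transcript start fell inside the interval, away from the summit, in 16 of the 435. The closest summit inside the distance rule lay 3017 bp from a start and the closest outside it 2997 bp. The fold deciding entry was 5.008 just inside and 4.998 just outside.

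The libraries came from HCEC-1CT, a line of immortalised human colonic epithelial cells described as karyotypically normal. The authors first derived a clone of this line carrying doxycycline-inducible Cas9. CREBBP-KO stands for cells in which CREBBP was then inactivated with synthetic guide RNAs. WT stands for the parental cells, and the paper calls the lines isogenic. Each genotype had 3 H3K27ac libraries, for which the submitters describe independent cell populations. The methods call the CREBBP-KO cells monoclonal but elsewhere describe pooling of several clones and of matched parental subclones, so effects of CREBBP loss and of clone history cannot be told apart.

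H3K27ac is acetylation of lysine 27 on the tail of histone H3 and marks active promoters and enhancers. CREBBP and its paralogue EP300 are the acetyltransferases that deposit most of it, with enhancers depending on them more than promoters. Most enhancers lie in introns or between genes, but coding exons and 3′ UTRs can also carry enhancer activity, in which case the same bases serve the transcript and the regulatory element.

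The WT peak lists held between 86163 and 93567 peaks, the CREBBP-KO lists between 99008 and 111697, and without read counts the sequencing depth of a library is unknown. At promoters, all 5 mesenchymal markers examined (VIM, CDH2, FN1, ZEB1 and TWIST1) had a peak in all 6 libraries. Of 5 epithelial markers, KRT8 and EPCAM did so, while CDH1 and KRT19 had none in any library. The EPCAM peak was weak, at percentiles of the library's list of 0.175, 7.27 and 8.36 in WT and 46.1, 35.6 and 19.7 in CREBBP-KO. Of the colonic markers reported here, MUC2 had a peak in all 6 and CDX1, CDX2, VIL1, LGR5 and CA1 in none. Of the immune and endothelial markers reported here, CD68 had a peak in all 6 libraries, PECAM1 in the 3 CREBBP-KO libraries alone, and PTPRC, CD3E, CDH5 and KDR in none.

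The 7 coding intervals below were those among the 20 with the largest rank shifts described further on, and each line gives 30 bases of the plus strand of hg38 centred on the summit, with CG dinucleotides in capitals. UNC5CL, USF3, SLC35D1 and ADAMTS20 are encoded on the minus strand. The choice of window was made after the values were seen.
CROCC: CGagctggccCGCGtggaggtgcagCGgCG
PLPPR4: agtacctcaaaatccagcctggCGctgtcc
ALPK3: gagagtcccaaggggaaggcacccctcagg
UNC5CL: agtgcagctcctgcaggctgcCGttctgct
USF3: tgatgttggtgaggctcagattcaattgaa
SLC35D1: gtgggcagaatcatgaacagtgcattgtaa
ADAMTS20: cacatagcccatgaCGgcaatgctataaaa
The first 4 came from intervals ranked higher in CREBBP-KO and the last 3 from intervals ranked lower. They lie at chr1:16960976-16961005 in CROCC, chr1:99306217-99306246 in PLPPR4, chr15:84840609-84840638 in ALPK3, chr6:41028513-41028542 in UNC5CL, chr3:113660876-113660905 in USF3, chr1:67042273-67042302 in SLC35D1 and chr12:43454031-43454060 in ADAMTS20. Within 100 bp either side of the summit, GC content was 80.6% in CROCC, 56.2% in PLPPR4, 64.7% in ALPK3 and 65.2% in UNC5CL, against 40.8% in USF3, 41.3% in SLC35D1 and 36.8% in ADAMTS20. The same windows held 27 CG dinucleotides in CROCC and 11 in UNC5CL, and 2 to 5 in each of the other 5. CROCC, which encodes rootletin of the ciliary rootlet, has near-identical partial copies nearby on chromosome 1, so reads placed there are uncertain.

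Coding and 3′ UTR intervals differed in how firmly the exon held the summit. Coding summits lay in exons with a median length of 186 bp (range 28 to 13041 bp), within intervals with a median length of 3007 bp of which a median of 10.4% was exonic. The 3′ UTR summits lay in exons with a median length of 4297 bp (range 119 to 24462 bp), and a median of 74.6% of those intervals was exonic, with 77 intervals wholly so. For comparison, the median internal exon of a canonical transcript was 123 bp and the median last exon 1424 bp. All 276 3′ UTR summits were in the last exon, as were 41 of the 159 coding summits.

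When each library's own highest peak was read in place of the highest of all 6, its summit was exonic in all 6 libraries for 238 of the 276 3′ UTR intervals but for 42 of the 159 coding intervals. In 18 coding intervals and 4 3′ UTR intervals it was exonic in 1 library alone. The summits of the 6 libraries spread over a median of 338 bp, more than the length of the median coding exon. For most coding intervals the label exonic therefore describes a summit inside a broader domain that is mainly outside exons, and for most 3′ UTR intervals a domain that lies mainly within the exon. Coding and 3′ UTR exons made up 2.17% of the 78.2 Mb covered by filtered intervals over 3 kb from a start, close to the 2.24% of those intervals with an exonic summit.

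**Figure D1:**
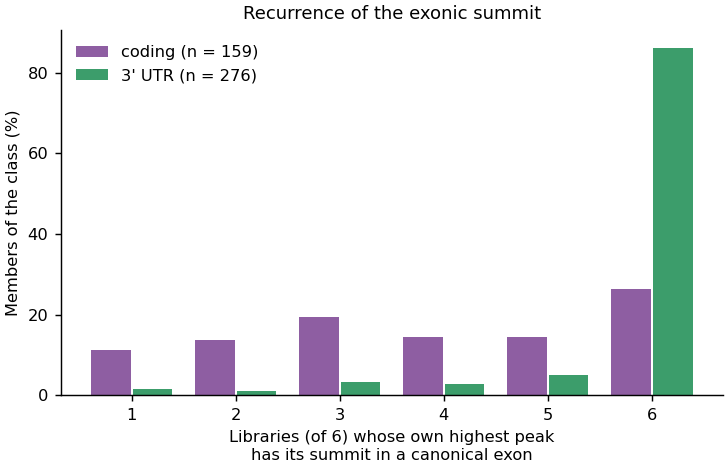
Share of coding (n = 159) and 3′ UTR (n = 276) intervals, in percent, by the number of libraries out of 6 whose own highest peak had its summit in a canonical exon. Most 3′ UTR intervals (238) were exonic in all 6 libraries, while coding intervals spread from 1 library (18 intervals) to 6 (42 intervals).

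Height was expressed as the percentile of an interval's highest fold among all peaks of the same library. This percentile depends on the number of peaks in the list, which differed between genotypes. The shift used for calls below was ranked over the same intervals in every library instead. The median percentile of the exonic intervals was 77.4, 77.2 and 74.1 in the WT libraries and 78.7, 77.4 and 76.5 in the CREBBP-KO libraries. The genotypes overlapped, at 76.2 ± 1.86 in WT and 77.6 ± 1.09 in CREBBP-KO (SD, n = 3 each, two-sided exact permutation test, p = 0.400). With 3 libraries against 3 the smallest p this test can give is 0.1. The difference of 1.34 in favour of CREBBP-KO turned to -2.25 when all lists were trimmed to the same number of peaks (exact permutation p = 0.1).

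Exonic intervals differed little in height from other distal intervals. Their median percentile minus that of intronic intervals over 3 kb from a start was 0.560 ± 0.206 in WT and -0.0727 ± 0.169 in CREBBP-KO (SD, n = 3 each, exact permutation p = 0.1). Against intergenic intervals at the same distance the difference was -0.659 ± 0.111 in WT and -1.05 ± 0.123 in CREBBP-KO (exact permutation p = 0.1, n = 3). Against intervals within 3 kb of a start it was -8.20 ± 1.97 in WT and -10.6 ± 0.652 in CREBBP-KO (exact permutation p = 0.200, n = 3). The mean percentile of single exonic intervals over the 6 libraries ran from 43.4 to 99.8, with 19 intervals above 95.

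The highest exonic intervals included membrane transporters, cytoskeletal and chromatin genes and a transcription factor. The 3′ UTR interval of SLC22A15, an organic cation transporter family member, lay at chr1:116063431-116070408 in exon 12, 34885 bp from the nearest start. Its percentiles were 99.7, 99.7 and 99.9 in WT and 99.6, 99.9 and 99.9 in CREBBP-KO, with deposited folds between 27.5 and 32.0 in WT and between 29.5 and 41.1 in CREBBP-KO. The 3′ UTR interval of SLC8A1, the plasma membrane sodium-calcium exchanger, reached 99.9, 99.8 and 99.5 in WT and 99.7, 99.8 and 99.8 in CREBBP-KO. It lay at chr2:40091856-40107111 in a last exon of 18360 bp, and 2 annotated transcript starts fell inside the interval, away from the summit. In both genes the genotypes overlapped.

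The interval in the 3′ UTR of SHROOM3, an actin-binding regulator of apical constriction, averaged 99.2, and that of PGPEP1, a pyroglutamyl peptidase, 99.0. Those of DPF3, a subunit of the BAF remodelling complex that reads acetylated histones, HS1BP3 and the G-protein subunit GNAQ averaged 98.3, 97.4 and 97.3. The highest coding summits were in FRY, a gene for a microtubule-associated protein, at 98.1, in TXN2, the mitochondrial thioredoxin, at 97.9, and in MECOM, a zinc finger transcription factor, at 97.5. FRY, TXN2 and MECOM had their summit in exons of 91, 872 and 88 bp, within intervals of 4892, 10572 and 14106 bp.

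The summit window of FRY held a TEAD core motif, shown here in capitals within 30 bases at chr13:32212265-32212294.
FRY: gtgtttttcttcCATTCCcatctacaggaa
The motif lies about an exon length upstream of the summit, and the bases printed reach into the intron beside the exon of 91 bp. The motif itself is therefore not shown to lie in coding sequence.

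CREBBP-KO and WT were then compared interval by interval, which addressed how the ranks of exonic intervals differed between the genotypes. The rank of each interval within its library was converted to a normal score, and the shift is the mean score in CREBBP-KO minus that in WT, in units of 1 SD of a normal distribution. The fit used limma across the 34864 filtered intervals for which every library had a peak, with Benjamini-Hochberg adjustment and a threshold of 0.05. Ranks are relative within a library, so a genome-wide gain or loss of H3K27ac would not be seen. The p-values measure the spread between the libraries.

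Of the 430 exonic intervals tested, 59 (13.7%) ranked higher in CREBBP-KO, where the background over all intervals was 18.6%, and 111 (25.8%) ranked lower, where the background was 18.7%. All 3 CREBBP-KO libraries lay above all 3 WT libraries in 85 exonic intervals (19.8%, background 24.8%) and below them in 141 (32.8%, background 23.3%). The median shift of the exonic intervals was -0.14, beside 0.02 over all intervals tested. Other distal intervals leaned the same way, with 12.9% higher and 23.6% lower among 8958 intronic intervals and 15.6% higher and 25.2% lower among 9517 intergenic ones. Intervals within 3 kb of a start leaned the other way, with 23.6% higher and 11.9% lower. Coding intervals (23 higher and 39 lower of 156) and 3′ UTR intervals (36 higher and 72 lower of 274) lay near these shares of lower and higher calls.

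Part of this count was set by the fold filter, since an interval kept through a single genotype had to be high there. The 435 exonic intervals comprised 288 that passed in each genotype, 78 that passed through WT only and 69 through CREBBP-KO only. Among the 288 that passed in both, 25 (8.68%) ranked higher and 61 (21.2%) lower, beside 15.5% and 15.8% over all 26244 tested intervals that passed in both. Distal intronic intervals that passed in both gave 8.16% higher and 20.5% lower. Without CREBBP-KO replicate 1 or replicate 3 the median shift of the exonic intervals was -0.07 or -0.08 (over all intervals 0.04 and 0.03), and without WT replicate 3 it was -0.21.

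**Figure D2:**
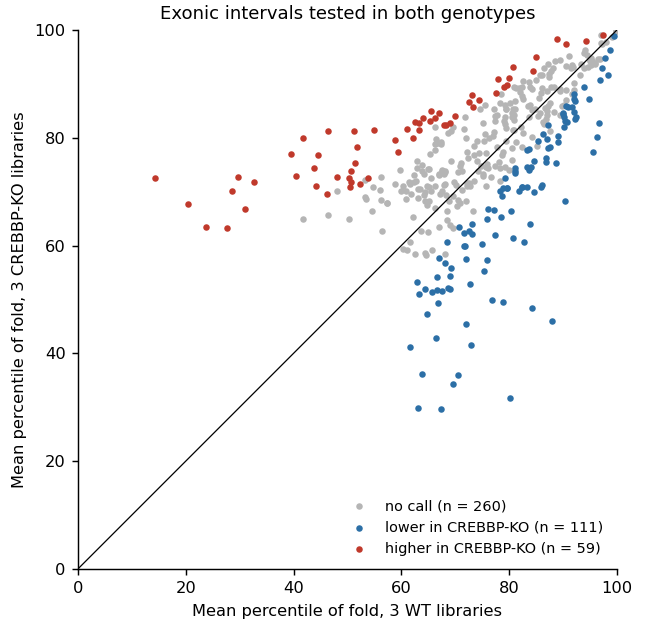
Mean percentile of fold over the 3 WT libraries (x axis) and the 3 CREBBP-KO libraries (y axis) for each of the 430 tested exonic intervals, coloured by the limma call at an adjusted p of 0.05, with the line of equality in black. The 59 intervals ranked higher lie above the line and the 111 ranked lower below it, and intervals in the top right corner moved little in percentile.

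The 10 largest increases, chosen among calls without overlap between genotypes, were in 6 3′ UTRs and 4 coding exons. The largest was in the 3′ UTR of HLCS (chr21:36753080-36754612, exon 11), the gene for holocarboxylase synthetase, which attaches biotin to carboxylases. Its percentiles were 8.42, 26.2 and 8.26 in WT and 78.6, 68.5 and 70.5 in CREBBP-KO, with deposited folds of 2.68 to 3.22 and 5.90 to 7.56. The shift was 2.01 (SE 0.30, limma adjusted p = 4.75e-05), and the genotypes were far apart.

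The interval of NLN, which encodes the peptidase neurolysin, stood at 27.2, 56.4 and 41.5 in WT and 81.3, 78.0 and 80.5 in CREBBP-KO, a shift of 1.69 (SE 0.30, adjusted p = 0.000194). BDH1, a mitochondrial enzyme of ketone body metabolism, had 35.3, 49.3 and 54.7 in WT and 82.3, 85.7 and 76.0 in CREBBP-KO, a shift of 1.66 (SE 0.29, adjusted p = 0.000217). CSNK2A1, a catalytic subunit of casein kinase 2, had 55.0, 48.9 and 49.6 in WT and 74.9, 84.3 and 84.7 in CREBBP-KO, in a 3′ UTR exon of 11579 bp that held the whole interval. In each of these genes every CREBBP-KO library lay above every WT library, which the choice of intervals required.

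WASF2, the actin regulator WAVE2, had the widest WT spread among the increases, at 43.8, 0.895 and 16.4, against 73.1, 67.3 and 62.5 in CREBBP-KO (shift 1.56, SE 0.35, adjusted p = 0.00172). SEC61A1, the channel subunit of the ER translocon, had 46.2, 17.1 and 22.1 in WT and 76.0, 67.9 and 66.7 in CREBBP-KO (shift 1.40, SE 0.31, adjusted p = 0.00158). An annotated transcript start fell inside the SEC61A1 interval, 3658 bp from its summit.

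The 4 coding increases were those whose bases are printed above. PLPPR4, a membrane protein related to lipid phosphatases, had 48.2, 13.6 and 27.3 in WT and 76.9, 68.6 and 72.9 in CREBBP-KO, a shift of 1.57 (SE 0.32, adjusted p = 0.000729). ALPK3, an alpha-kinase family member, had 34.2, 55.5 and 28.8 in WT and 84.2, 77.6 and 69.4 in CREBBP-KO, a shift of 1.56 (SE 0.31, adjusted p = 0.000687). Both summits were in exons longer than 1 kb (3900 and 1231 bp), and each library's own summit was exonic in all 6 libraries.

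CROCC had tightly grouped WT percentiles of 46.0, 44.1 and 43.5 and rose to 83.1, 68.4 and 79.2 in CREBBP-KO (shift 1.42, SE 0.31, adjusted p = 0.00118). UNC5CL, an UNC5-like protein with a death domain, had 35.8, 29.9 and 32.4 in WT and 76.0, 72.0 and 67.5 in CREBBP-KO (shift 1.41, SE 0.29, adjusted p = 0.000832). All 10 increases were in intervals that passed the fold filter in CREBBP-KO alone, so their direction was set by that filter. Of the 69 exonic intervals that passed this way, 34 (49.3%) ranked higher and none lower. Over all tested intervals that passed in CREBBP-KO alone, 49.2% ranked higher.

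The 10 largest decreases, chosen in the same way, were in 7 3′ UTRs and 3 coding exons. The largest was in the 3′ UTR of SHLD1 (chr20:5861862-5865122, exon 3), a component of the shieldin complex that protects DNA ends from resection. Its percentiles were 86.8, 89.9 and 87.2 in WT and 29.0, 49.2 and 59.6 in CREBBP-KO, with deposited folds of 11.1 to 12.2 and 3.25 to 4.89. The shift was -2.56 (SE 0.29, adjusted p = 2.76e-06), with tightly grouped WT libraries and widely spread CREBBP-KO libraries. SHLD1 and 8 others of the 10 passed the fold filter in WT alone, so their direction was set by that filter. None of the 73 exonic intervals tested that passed in WT alone ranked higher, and 50 (68.5%) ranked lower. Over all tested intervals that passed in WT alone, 64.4% ranked lower.

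USF3, a helix-loop-helix transcription factor gene, carried its summit in a coding exon of 13041 bp, the longest exon among the coding intervals. Its percentiles were 81.9, 77.7 and 80.9 in WT and 39.2, 49.5 and 6.45 in CREBBP-KO (shift -2.53, SE 0.32, adjusted p = 9.78e-06). The summits of the 6 libraries lay within 76 bp of each other, all in this exon, which makes USF3 a case where the domain is clearly exonic.

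TMEM9B, a lysosomal membrane protein, had 85.0, 86.3 and 81.6 in WT and 30.5, 59.1 and 55.6 in CREBBP-KO (shift -2.24, adjusted p = 9.78e-06). SLC35D1, a nucleotide sugar transporter of the ER, had 78.3, 81.3 and 76.9 in WT and 49.5, 49.7 and 49.2 in CREBBP-KO, the tightest CREBBP-KO libraries among the decreases (shift -1.92, SE 0.27, adjusted p = 2.92e-05). Its summit was in a coding exon of 93 bp, and 3.66% of the interval was exonic. ADAMTS20, a secreted metalloprotease gene, had 63.6, 74.0 and 64.7 in WT and 13.8, 34.1 and 41.2 in CREBBP-KO (shift -1.79, SE 0.31, adjusted p = 0.000176), with an exonic own summit in 2 libraries.

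RASGRP1, an activator of Ras, was the only one of the 20 most shifted intervals that passed the fold filter in both genotypes. It had 88.8, 92.2 and 90.1 in WT and 66.3, 73.1 and 65.5 in CREBBP-KO (shift -1.74, SE 0.23, adjusted p = 1.29e-05). SOAT1, which esterifies cholesterol, ZRANB2, a splicing regulator, MTARC1, a mitochondrial reductase, and the centrosomal gene CEP57 had shifts of -1.81, -1.79, -1.77 and -1.77, all in 3′ UTRs. The CEP57 libraries were 89.1, 86.8 and 72.5 in WT and 63.7, 57.9 and 60.4 in CREBBP-KO. Every one of the 20 intervals kept its direction and call in all alternatives in which it could be fitted, which is not independent support. The fold filter set the direction of all but RASGRP1. Alternatives that changed the distance, the starts, the transcripts or the own-summit rule reused the same fit. At a fold of at least 10, only RASGRP1 and SHLD1 of the 20 could be fitted.

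**Figure D3:**
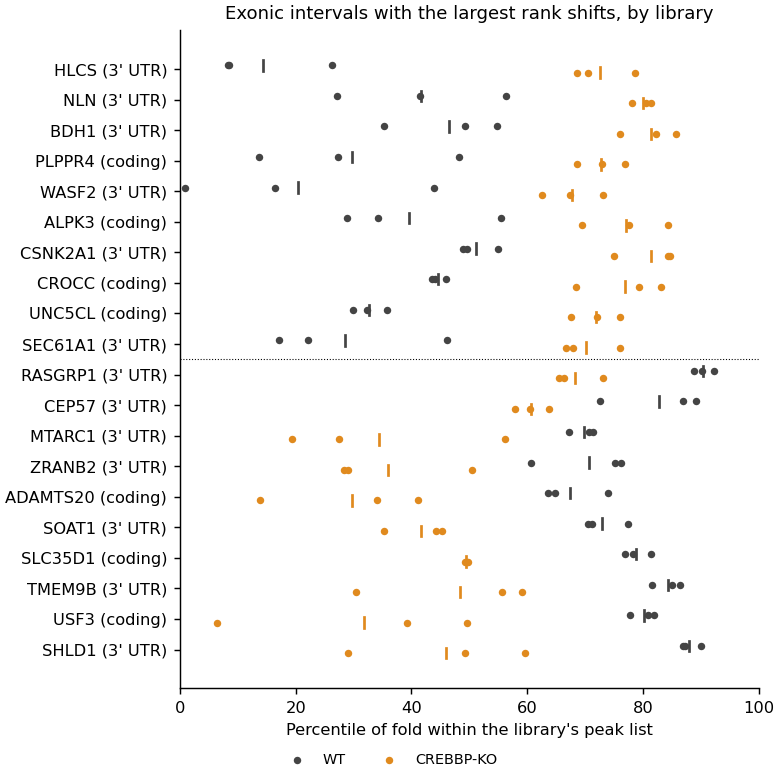
Percentile of fold in each WT (grey) and CREBBP-KO (orange) library for the 10 exonic intervals with the largest increase (above the dotted line) and the 10 with the largest decrease (below it), with a vertical tick at each mean. HLCS rises from a mean of 14.3 to 72.5 and SHLD1 falls from 88.0 to 46.0. The intervals were chosen for showing no overlap between genotypes.

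Among the 10 highest exonic intervals, 3 passed the test, all with small changes in percentile. MECOM ranked lower, from 99.3, 98.7 and 98.2 in WT to 97.5, 95.4 and 96.3 in CREBBP-KO (shift -0.61, SE 0.17, adjusted p = 0.00651). SHROOM3 went from 99.8, 99.6 and 99.4 to 98.3, 98.9 and 99.4 (shift -0.49, SE 0.19, adjusted p = 0.0451). DPF3 ranked higher, from 98.2, 96.7 and 97.3 to 99.5, 99.2 and 99.1 (shift 0.50, SE 0.17, adjusted p = 0.0210). Each of these 3 calls was lost when intervals were ranked by -log10 p in place of fold, with shifts of -0.07 for MECOM, 0.04 for SHROOM3 and 0.03 for DPF3, and when trends with GC content and length were removed (-0.34, -0.42 and 0.31). The DPF3 call was also lost with limma without the trend (0.50) and without WT replicate 2 or CREBBP-KO replicate 1 (0.43 each). The SHROOM3 call was also lost with limma without the trend (-0.49), with a fold of at least 3 (-0.46) or the fold in at least 1 replicate (-0.47), with median-centred log2 fold (-0.17 in log2 units), and without WT replicate 1 or 2 (-0.37 and -0.50) or CREBBP-KO replicate 1 or 2 (-0.36 and -0.48).

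With the exonic intervals ordered by mean percentile and cut into 4 groups of 109, 109, 108 and 109, the numbers called in either direction were 61, 34, 41 and 34 from the lowest group to the highest. Over all intervals tested, 18.6% were called higher and 18.7% lower. The lowest group stood apart, and 105 of its 109 intervals had passed the fold filter in a single genotype, beside 41, 1 and 0 in the other groups.

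The 5 exonic intervals without a peak in all 6 libraries had all passed in WT alone. The 3′ UTR interval of KCNK12, a potassium channel gene, had percentiles of 64.8, 71.0 and 61.5 in WT and no peak in CREBBP-KO. That of C11orf87 had 71.2, 63.9 and 68.7 in WT and no peak in CREBBP-KO. The coding intervals of ZMYM4, TMEM52B and the mitochondrial regulator MTERF3 had WT means of 63.7, 62.3 and 67.2 and a peak in 1 CREBBP-KO library each, at 37.2, 24.8 and 19.3. These account for the number of exonic intervals with a peak, which was 435 in every WT library and 431, 432 and 430 in CREBBP-KO (exact permutation p = 0.1, n = 3). The difference of -4.00 depended on the fold filter, and was 22.7 with a fold of at least 3 and 0 with a fold of at least 10.

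Shares of exonic intervals whose own summit was exonic were 85.5%, 84.8% and 85.3% in WT and 78.9%, 85.4% and 83.7% in CREBBP-KO (exact permutation p = 0.30, n = 3). The rule for exonic intervals made the own summit exonic in whichever library held the highest peak. These shares therefore depend in part on which genotype held that peak, and the test cannot separate the 2. The difference of -2.54 percentage points rested on CREBBP-KO replicate 1, and was 0.081 without it.

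The direction of the shift moved with base composition. Exonic intervals that ranked higher had a median GC content of 54.7% within 100 bp of the summit (quartiles 46.5 and 62.4), those without a call 45.3% and those that ranked lower 39.3% (quartiles 35.3 and 46.5). In the third of tested intervals with the lowest GC (24.4 to 39.8%, n = 143), 5 (3.50%) ranked higher and 59 (41.3%) lower. Of those between, 15 (10.5%) ranked higher and 31 (21.7%) lower. In the third with the highest GC (49.8 to 84.1%, n = 144), 39 (27.1%) ranked higher and 21 (14.6%) lower. Distal intronic intervals cut at the same GC values gave the same order, with 7.06% higher and 30.9% lower at low GC and 21.6% higher and 14.3% lower at high GC. The correlation of GC content with the shift was 0.33 across the 430 intervals, which share the same 6 libraries and are not independent replicates.

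When trends of the scores with GC content and interval length were removed within each library, 62 exonic intervals ranked higher and 76 lower of 430, beside 15.5% and 16.0% over all intervals. The share of calls that were higher thus moved from 34.7% to 44.9% for the exonic intervals, and from 66.5% to 51.0% for intervals within 3 kb of a start. The part of GC content and length in the calls was not tested beyond this.

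**Figure D4:**
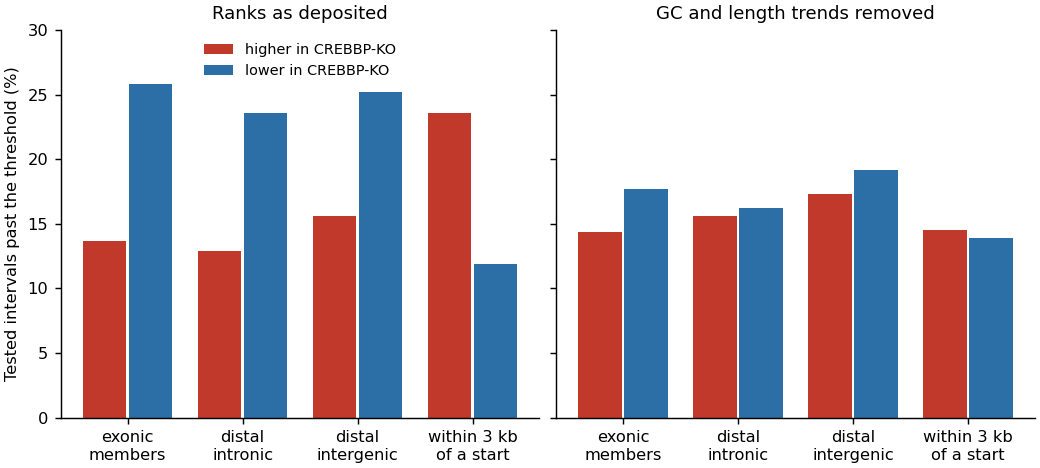
Percentage of tested intervals ranked higher (red) or lower (blue) in CREBBP-KO at an adjusted p of 0.05, for exonic intervals, other distal intervals and intervals within 3 kb of a start, with ranks as deposited (left) and after removal of GC and length trends (right). The excess of lower calls in exonic intervals shrinks from 25.8% against 13.7% to 17.7% against 14.4%.

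**Figure D5:**
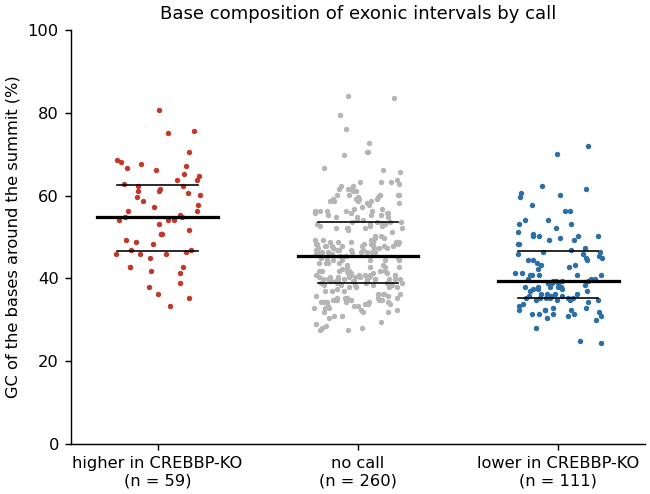
GC content in percent of the bases within 100 bp of the summit for each tested exonic interval, by call. Thick bars are medians and thin bars quartiles, and the median falls from 54.7% in intervals ranked higher to 45.3% without a call and 39.3% in those ranked lower.

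Coding windows held a median of 3 CG dinucleotides, and 3′ UTR, distal intronic and distal intergenic windows a median of 2 each. The means were 4.84 at coding summits, 2.71 in 3′ UTRs, 2.16 in introns and 2.48 between genes, with 10 or more in 31 exonic windows, of which 21 were coding. The median GC content of exonic windows was 44.8%, close to the 43.8% of intronic and 44.3% of intergenic windows.

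Motifs were searched as fixed letters on both strands in the same windows, 100 bp either side of the summit. The AP-1 core TGANTCA occurred in 26 exonic windows (5.98%), beside 6.81% of intronic and 6.77% of intergenic windows. The TEAD core CATTCC occurred in 49 (11.3%), beside 11.0% and 11.2%. The SP/KLF core GGGCGG occurred in 26 (5.98%), beside 3.55% and 4.60%. The full cAMP response element TGACGTCA, bound by the CREB partner of CREBBP, occurred in 1 exonic window.

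Of the 26 exonic windows with an AP-1 core, 12 ranked lower (46.2%), 2 higher and 12 had no call. Among 610 distal intronic intervals with the core, 155 ranked lower (25.4%), and among all exonic intervals tested the share was 25.8%. The counts in exonic windows are small and were not tested. The 4 coding intervals ranked lower in which the centre of the core lay in coding sequence are printed here on the plus strand with the core in capitals, whichever strand the gene is on. They were chosen after their values were seen.
NCKAP5: gctcctcaagcTGAGTCAgcagatgctcaa
LNPEP: gaagaggattaTGAGTCAtcagcaaagctg
PPIG: aaatttgatcaTGAATCAagccctggaaca
BLTP3A: tgggtgctgacTGACTCAcagctcaaggct
These windows are chr2:133303056-133303085 in NCKAP5, chr5:96979317-96979346 in LNPEP, chr2:169637473-169637502 in PPIG and chr6:34835351-34835380 in BLTP3A. The core lay 4 bp from the summit in NCKAP5 and 9 bp in PPIG, and 61 and 62 bp in LNPEP and BLTP3A.

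PPIG, a nuclear cyclophilin with a region rich in serine and arginine, was among the higher exonic intervals, at 98.9, 99.2 and 97.3 in WT and 92.9, 90.0 and 92.0 in CREBBP-KO (shift -1.11, SE 0.17, adjusted p = 5.48e-05). LNPEP, a membrane aminopeptidase, had 83.3, 89.2 and 85.3 in WT and 72.9, 69.4 and 70.5 in CREBBP-KO (shift -1.22, SE 0.23, adjusted p = 0.00034). Both passed the fold filter in both genotypes, with an exonic summit in all 6 libraries and no overlap. NCKAP5 and BLTP3A passed in WT alone, with shifts of -1.48 and -1.05.

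Host genes mostly had an acetylated promoter. A filtered interval lay at a promoter (within 1 kb of a protein-coding start) of 346 of the 425 host genes (81.4%), beside 59.8% of all 19663 protein-coding genes and 82.2% of the 3734 genes with a distal intronic interval. Of the 425, 224 also had a distal intronic interval.

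Shifts of the exonic interval and of the promoter of the same gene showed little relation. In 348 pairs tested at both, the shift had the same sign in 164, with a correlation of 0.05 across pairs, which share the same libraries. At the promoters of these pairs 82 ranked higher and 25 lower. Of the 93 pairs whose exonic interval ranked lower, the promoter ranked higher in 19 (20.4%, beside 23.6% of all pairs), lower in 7 (7.53%, beside 7.18%) and had no call in 67. Where the exonic interval ranked higher, the promoter ranked higher in 11, lower in 4 and had no call in 28, and in 146 pairs neither was called.

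Examples of exonic decreases beside promoter increases, chosen after their values were seen, were ANKH, a membrane protein of pyrophosphate export, KITLG, the ligand of the KIT receptor, and WNT5A, a secreted WNT ligand. The 3′ UTR interval of ANKH went from 85.1, 81.6 and 75.5 in WT to 62.4, 70.5 and 51.3 in CREBBP-KO (shift -1.49, SE 0.29, adjusted p = 0.000513), while its promoter shifted by 1.04. That of KITLG went from 80.0, 79.7 and 78.0 to 75.9, 74.5 and 67.3 (shift -0.68), with a promoter shift of 0.88, and that of WNT5A from 93.0, 93.0 and 90.3 to 86.7, 90.9 and 87.1 (shift -0.44, adjusted p = 0.0479), with a promoter shift of 0.50. In the opposite case, the decreases at SHLD1, USF3 and MECOM came with lower promoters, at -0.56, -0.53 and -1.13.

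Each list of genes examined held at most 4 exonic intervals, and 425 of all 19663 protein-coding genes held an exonic interval. Whether a list differed from that share was not tested. Of 33 cytoskeletal linker genes, many with long exons, 4 held an exonic interval, of which 2 ranked lower and none higher, beside 25.8% lower and 13.7% higher over all exonic intervals. SHROOM3, whose call depended on the processing, is given above, and MYH14, a nonmuscle myosin heavy chain, went from 68.2, 70.3 and 62.3 in WT to 42.6, 63.5 and 41.8 in CREBBP-KO (shift -1.14, SE 0.31, adjusted p = 0.00581), having passed the fold filter in WT alone. TNS3 and SYNPO, both actin-associated, had shifts of 0.41 and -0.39 that missed the threshold (adjusted p = 0.0874 and 0.244).

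Of 89 matrix and adhesion genes, 4 held an exonic interval and none passed the test. LAMB4, a laminin chain, averaged 85.7, and the collagen genes COL12A1, COL21A1 and COL5A2 averaged 74.3, 71.9 and 56.0. COL5A2 had 43.2, 49.9 and 46.0 in WT and 70.4, 64.7 and 61.8 in CREBBP-KO, apart in all libraries but short of the threshold (shift 0.54, adjusted p = 0.150). Of 49 chromatin regulators SETD2, the methyltransferase of H3 lysine 36, held the only exonic interval, at 94.7 with a shift of -0.16. Of 34 transcription factors FOSL2, an AP-1 subunit, held the only exonic interval, at 74.1 with a shift of -0.29. None lay in the 23 epithelial junction and keratin genes or in the 36 receptor and growth-signalling genes. Of these, 12 and 28 had a filtered promoter interval. At 425 host genes of 19663, lists of this size are too small to read an absence.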

How the data were processed

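H3K27ac ChIP-seq was analysed in 3 WT and 3 CREBBP-KO libraries, and the 2 input libraries were not used. Per the labels and the study's methods, the authors aligned reads to hg38 (BWA is named in the submitters' processing notes) in the nf-core pipeline and called narrow peaks per library with MACS2. The deposited columns are a linear fold over local background (a ratio), the summit offset, and -log10 p and -log10 q. The deposited score was not used. Whether lists were made before or after the reported downsampling is not given in the sources used here. No read counts were at hand, so depth is unknown.

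Peaks that overlapped were merged, filtered at a fold of 5 in all 3 replicates of a genotype, and annotated with GENCODE release 44. The highest fold of each interval was ranked within its library, converted to normal scores and fitted with limma 3.58.1 (trend, R 4.3.3), with Benjamini-Hochberg adjustment over 34864 intervals. The fit was tested on simulated data. Ranks and normal scores were computed with scipy 1.17.1. Values per library were set against each other by exact permutation of the libraries, two-sided. Exons were read from the GENCODE annotation, and sequences with pysam 0.24.0. Named intervals were the 10 highest by mean percentile, the 10 largest shifts in each direction past the threshold with no overlap between genotypes, those without a peak in all 6 libraries, and those in the gene lists. Intervals and lists were chosen with earlier results of these data known. Some cell type markers are not reported here.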

Additional observations from a re-analysis of the deposited data

How the results depend on the processing

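The shift of the exonic intervals stayed below that of all intervals in every alternative, while its size did not hold. The median shift was -0.07 with a fold of at least 3, with the fold in at least 1 replicate, with ranking by -log10 p and with GC and length trends removed. It was -0.08 with median-centred log2 fold or with protein-coding starts only, -0.09 with the fold in 2 of 3 replicates or a distance of 1 kb, -0.10 where the own summit was exonic in at least 4 libraries, -0.11 with any protein-coding transcript and -0.21 with a fold of at least 10. Members numbered 904 at a fold of at least 3, 670 with the fold in at least 1 replicate and 127 at a fold of at least 10. In the last setting 15 (11.8%) ranked higher and 41 (32.3%) lower, beside 22.4% and 21.5% over all intervals. With protein-coding starts only, members numbered 613, and 91 of the 607 tested ranked higher and 145 lower. The share ranked higher there stayed close to the 13.7% of the main setting and below the 18.6% of all intervals. The coding share was 30.7% at a fold of at least 10, 41.3% with protein-coding starts only and 25.3% where the own summit was exonic in at least 4 libraries.

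The difference in median percentile reversed to -0.417 at a fold of at least 10, to -0.504 with peaks of -log10 q of at least 5 only, and to -2.25 with lists of the same length. The difference in intervals with a peak reversed to 22.7 at a fold of at least 3 and 1.33 with the fold in at least 1 replicate, and was 0 both for own summits in at least 4 libraries and for a fold of 10 or more. SHROOM3 reversed to 0.04 with ranking by -log10 p. The causes were not tested.

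Leaving out 1 library at a time gave 445 to 460 members, a coding share of 36.1 to 37.2% and a median shift of -0.21 to -0.07. Differences were 0.792 to 2.38 in median percentile, -5.00 to -2.17 in intervals with a peak and -3.46 to 0.081 points in own exonic summits. Between 42 and 62 ranked higher (9.33 to 13.7%, beside 13.7 to 18.7% of all intervals). Between 85 and 105 ranked lower (19.3 to 23.2%, beside 14.9 to 17.4%). Same-numbered libraries of the genotypes were not paired by the data, with correlations of their deviations of 0.011, 0.014 and 0.028. A fit with the replicate block gave 59 higher (13.7%, beside 18.7% of all intervals), 114 lower (26.5%, beside 18.8%) and a median shift of -0.14. With the block SHROOM3 lost its call, and no other named interval changed its call. Peak heights without counts carry no counting interval, and intervals of low fold are the least certain.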

Other observations

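In these data 10 genes held a pair of exonic intervals, and in no pair was one interval called higher and the other lower. At 13.7% higher and 25.8% lower over all exonic intervals, 10 pairs are too few to read this absence. In DPF3 both 3′ UTR intervals ranked higher, with shifts of 0.50 and 1.05. In PTGS1, the cyclooxygenase 1 gene, the coding interval ranked lower, from 72.9, 73.8 and 72.6 in WT to 73.4, 65.8 and 53.0 in CREBBP-KO (shift -0.85, limma adjusted p = 0.028). The 3′ UTR interval of the same gene stood at 73.4, 76.0 and 77.4 in WT and 85.2, 87.7 and 85.4 in CREBBP-KO, short of the threshold (shift 0.52, adjusted p = 0.0557). In PTPRQ, XDH and CNKSR3 a single interval of the pair ranked higher, with shifts of 1.01, 0.82 and 0.72, beside -0.20, -0.30 and -0.02 at the other. In SPIN1 the coding interval ranked lower (-0.78) beside -0.44 at the 3′ UTR interval. No interval passed the test in DYNC1H1, FMNL2, RPS6KA5 or SH3TC2. These genes were chosen for having 2 intervals, not for their values, and the differences within pairs were not tested.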
